A study of Mus musculus with 15 samples.

Results

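The Hox genes of the mouse lie in 4 clusters, and the count table holds 39 of them among 44674 genes, taken as every gene whose symbol is Hoxa, Hoxb, Hoxc or Hoxd followed by a number. Noncoding genes of the clusters were kept apart. In the annotation of GRCm38 (GENCODE M21), 11 Hoxa genes span chr6:52155590-52260880 on the minus strand. On the plus strand, 10 Hoxb genes span chr11:96194316-96368256, 9 Hoxc genes chr15:102921103-103036852 and 9 Hoxd genes chr2:74668310-74765142. Hox proteins are homeodomain transcription factors that give cells their position along the body axis. Within a cluster the genes stand in the order in which they are used, with low paralog numbers active from the hindbrain on and high paralog numbers in the lumbar and sacral region and in the limbs, and connective tissue cells often keep the combination of their place of origin. They bind DNA together with TALE cofactors of the Pbx, Meis and Pknox families. In endothelial cells (ECs), Hoxb3 and Hoxd3 are known to promote the growth of vessels, and Hoxa5 and Hoxd10 to mark resting endothelium.

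RNA was sequenced from 15 libraries of 8 conditions. P0 Emcn+ and P0 Emcn- are cells with and without the sialomucin endomucin, sorted from the first culture (P0) of whole bone marrow of femurs and tibias, and P1, P2, P3 and P4 Emcn- are later passages of the Emcn- cells. Lung stands for cells of lung cultures, which the study labels as Emcn- ECs and reports to be predominantly Emcn-. MSC stands for mesenchymal stromal cells of the marrow, sorted by the methods from a first culture in MesenCult medium. The other cultures were grown in EGM-2, a medium for ECs, so that medium and condition cannot be told apart for MSC. Each condition had 2 libraries, except P4 with 1. All samples are labelled WT. By the methods, they came from adult mice of either sex in which tdTomato, at the Rosa26 locus, is switched on by Tie2-CreERT2 after tamoxifen (marrow and lung) or by Osx-Cre, which is active in osteolineage cells (MSC). Cells without CD45 and with tdTomato were sorted, so that a cell counts as an EC by its use of the Tie2 promoter when tamoxifen was given. The labels name 4 batches. Batch d held replicate 1, and batch a replicate 2, of both P0 populations and of lung. Batch b held P4 and replicate 1 of P1 to P3, and batch c held replicate 2 of P1 to P3 and both MSC libraries.

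Library totals were 9914620 to 39718807 counts, of which 2984 to 13382 fell on Hox genes. The 10 endothelial markers summed to 12301 and 10428 CPM (counts per 1000000 counts of the library) in P0 Emcn+, to 336 and 78.6 CPM in P0 Emcn-, to 67.9 to 103 CPM in the passaged cells, to 229 and 709 CPM in lung and to 43.7 and 369 CPM in MSC. Emcn itself had 631 and 798 CPM in P0 Emcn+, 12.7 and 2.52 in P0 Emcn-, 0.925 to 3.68 in the passaged cells, 1.23 and 26.7 in MSC and 32.6 and 125 in lung. Both lung libraries, described as Emcn-, thus held more Emcn than every Emcn- library of marrow. The Emcn- libraries of marrow, labelled as ECs, held little Cdh5, which encodes VE-cadherin. It had 119 and 6.35 CPM at P0 and 0.0564 to 2.33 CPM later, beside 6222 and 5118 CPM in P0 Emcn+. Flt1 and Tek were not as low. Flt1 had 70.4 and 8.88 CPM in P0 Emcn-, 18.7 to 40.7 in the passaged cells and 25.99 and 47.96 in P0 Emcn+. Tek had 20.3 and 49.4, 14.95 to 40.3, and 168 and 125 CPM. Between the P0 populations, 9 of the 10 markers passed edgeR's limits (given below), each with more RNA in Emcn+ cells, and Flt1 did not. The 8 mesenchymal and fibroblast markers summed to 4385 to 21394 CPM in the Emcn-, lung and MSC libraries and to 235 and 313 CPM in P0 Emcn+. The 8 macrophage markers summed to 534 and 492 CPM in P0 Emcn+ and to 204 and 251 CPM in P0 Emcn-. They summed to 18.3 and 17.01 CPM in lung and to 17.4 and 30.2 CPM in MSC. In P1 replicates 1 and 2 they summed to 69.6 and 228 CPM, and in P2 to P4 to 9.02 to 38.1 CPM. Their part in the Hox results was not tested. In bulk RNA, fewer cells of a type and less RNA per cell cannot be told apart.

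Promoter sequences from RefSeq (GRCm38.p6) were matched by symbol for 22 of the 39 genes. To show what lies before genes that the P0 populations used differently, the 250 bases before the start are printed for Hoxb8 (chr11:96281655-96281904, plus strand), Hoxb4 (chr11:96318017-96318266, plus strand), Hoxd4 (chr2:74721728-74721977, plus strand) and Hoxd8 (chr2:74704365-74704614, plus strand), which were higher in Emcn+ cells, and for Hoxa10 (chr6:52240855-52241104, minus strand, before the longer transcript), which was lower. No annotated exon overlaps these windows. The Hoxd4 window lies before the RefSeq start but inside the gene as annotated in GENCODE, which begins at chr2:74711929. Capitals mark 2 motifs searched on both strands, TTTATNG, a form bound by Cdx and posterior Hox proteins, and TGATNNAT, a form bound by Pbx with Hox proteins. The Meis motif TGACAG was searched as well.
Hoxb8: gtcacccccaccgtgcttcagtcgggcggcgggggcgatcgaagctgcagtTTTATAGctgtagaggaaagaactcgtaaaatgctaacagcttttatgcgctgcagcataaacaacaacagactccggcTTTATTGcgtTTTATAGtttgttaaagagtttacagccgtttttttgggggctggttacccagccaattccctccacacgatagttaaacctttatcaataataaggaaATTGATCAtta
Hoxb4: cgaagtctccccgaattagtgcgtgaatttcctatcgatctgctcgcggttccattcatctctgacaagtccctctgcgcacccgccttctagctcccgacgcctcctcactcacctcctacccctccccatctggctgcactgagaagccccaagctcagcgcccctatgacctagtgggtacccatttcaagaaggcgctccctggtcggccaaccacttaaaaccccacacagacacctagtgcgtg
Hoxd4: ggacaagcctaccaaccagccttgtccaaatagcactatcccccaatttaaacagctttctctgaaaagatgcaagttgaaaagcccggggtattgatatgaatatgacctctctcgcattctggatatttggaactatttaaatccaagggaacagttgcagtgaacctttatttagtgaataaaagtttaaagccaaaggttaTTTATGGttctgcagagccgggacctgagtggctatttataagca
Hoxd8: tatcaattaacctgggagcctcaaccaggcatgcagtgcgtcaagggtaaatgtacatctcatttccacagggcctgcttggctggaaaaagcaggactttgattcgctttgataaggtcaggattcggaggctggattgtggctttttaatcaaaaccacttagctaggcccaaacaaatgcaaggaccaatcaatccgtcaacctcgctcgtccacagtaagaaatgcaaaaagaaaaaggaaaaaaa
Hoxa10: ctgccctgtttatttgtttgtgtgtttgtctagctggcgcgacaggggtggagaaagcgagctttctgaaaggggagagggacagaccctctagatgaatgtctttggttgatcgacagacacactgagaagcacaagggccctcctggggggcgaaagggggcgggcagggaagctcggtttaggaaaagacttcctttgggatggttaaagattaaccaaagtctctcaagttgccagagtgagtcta
Hoxb8 held TTTATNG 3 times, and TGATNNAT 1 time, ending 4 bases before the start. Hoxd4 held TTTATNG 1 time, and the other 3 windows held none of the 3 motifs. Of all 32851 windows of this length, 9.81% held TTTATNG, 7.68% TGATNNAT and 15.9% TGACAG. Of the 24 windows of Hox genes, 8.33%, 16.7% and 8.33% did so.

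P0 Emcn+, lung and P0 Emcn- cells differed in the part of the clusters that was detected. With at least 1 CPM in every library taken as detected, P0 Emcn+ had 22 Hox genes, which were 9 Hoxa genes up to Hoxa10, the 8 genes Hoxb2 to Hoxb9, Hoxd3, Hoxd4, Hoxd8, Hoxd9 and Hoxd10, and no Hoxc gene. Lung had 14, with 6 Hoxa genes up to Hoxa7, the 7 genes Hoxb2 to Hoxb8, Hoxc4 and no Hoxd gene. P0 Emcn- had 25, with 9 Hoxa genes up to Hoxa11, 5 Hoxb genes, 8 of the 9 Hoxc genes and Hoxd4, Hoxd8 and Hoxd9. P1, P2 and P3 had the same 18 genes, with no Hoxb gene among them. The absence of Hoxb genes there rests on replicate 1, since Hoxb2 to Hoxb7 were each at 1 CPM or more in all 3 replicate 2 libraries of P1 to P3. P4 had 19, those 18 and Hoxc12, and MSC had 21, with Hoxa13, Hoxd4 and Hoxd10 in addition to the 18. Hoxb1 (4 counts in all libraries), Hoxb13 (12 counts, 11 of them in P0 Emcn+), Hoxd1 (1 count) and Hoxd12 (0 counts) did not pass the filter on low counts, which left 35 genes to test. A count of 0 in a library allows up to 3 counts, or 0.0755 to 0.303 CPM (counting error only).

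**Figure D1:**
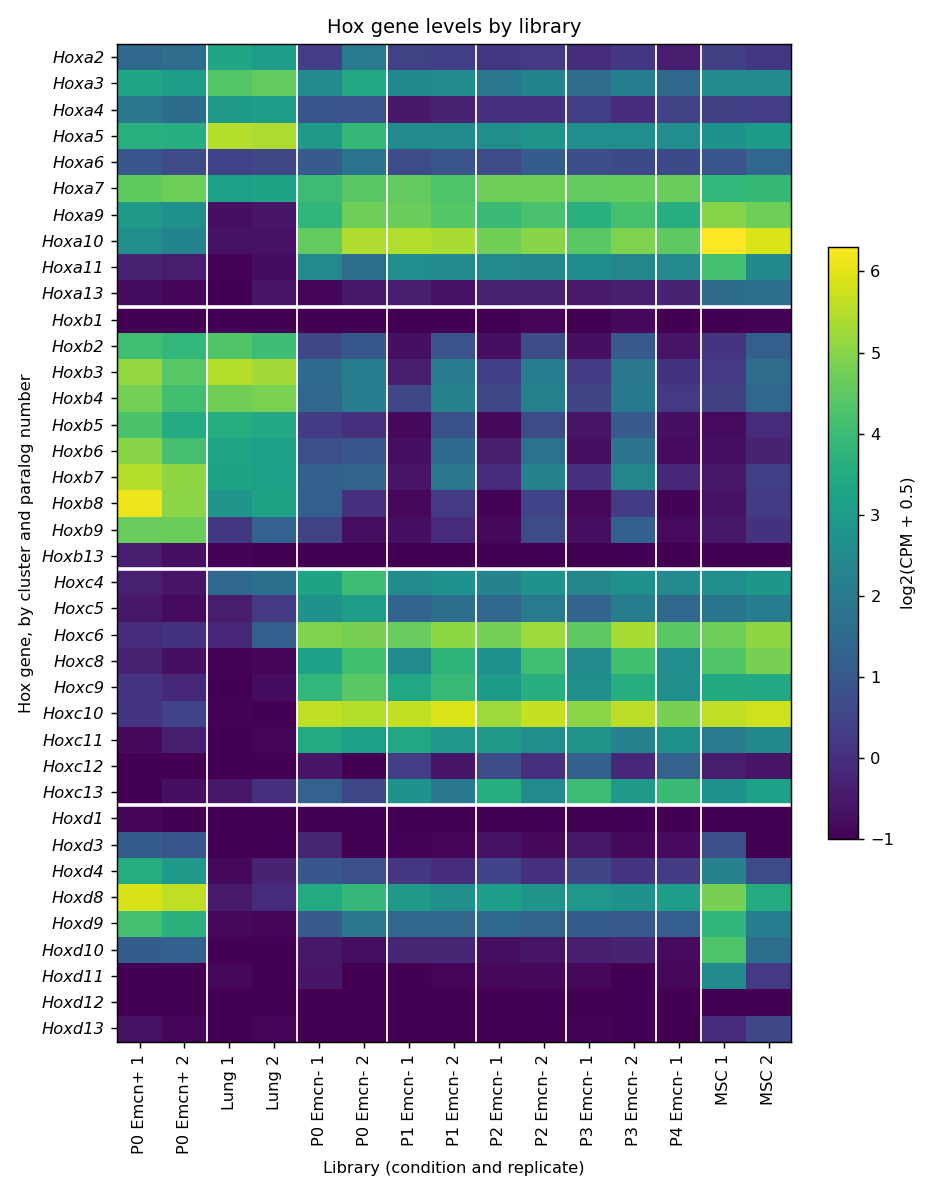
Level of the Hox genes (rows, by cluster and paralog number) in the 15 libraries (columns), as log2 of CPM plus 0.5. Hoxb2 to Hoxb8 are higher in P0 Emcn+ and lung than in all other libraries, and the Hoxc genes other than Hoxc12 are lower in both than in all other libraries, as are 1.57% (higher) and 2.12% (lower) of all tested genes.

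On a scale per length (CPM per kb of exon), Hoxb genes made up 64.9% and 57.6% of the summed Hox level in P0 Emcn+ replicates 1 and 2, and Hoxc genes 0.616% and 0.932%. In lung, Hoxa genes made up 47.9% ± 0.145 and Hoxb genes 49.8% ± 0.882 (mean ± SD, n = 2). In P0 Emcn-, Hoxc genes made up 57.6% ± 5.95 and Hoxb genes 4.80% ± 0.515. The mean share of Hoxc lay between 58.6% and 59.5% in P1, P2 and P3, and was 57.3% in the P4 library. MSC had 48.3% ± 11.4 from Hoxc genes, and its libraries stood apart in Hoxd, with 22.04% and 6.89%. On this scale, P0 Emcn+, lung and P0 Emcn- did not overlap in the share of any cluster. In shares of CPM without regard to length, P0 Emcn+ and lung overlapped for Hoxb (62.8% and 55.1% against 57.02% and 54.7%), and lung and P0 Emcn- for Hoxa (41.4% and 42.3% against 32.6% and 41.8%).

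**Figure D2:**
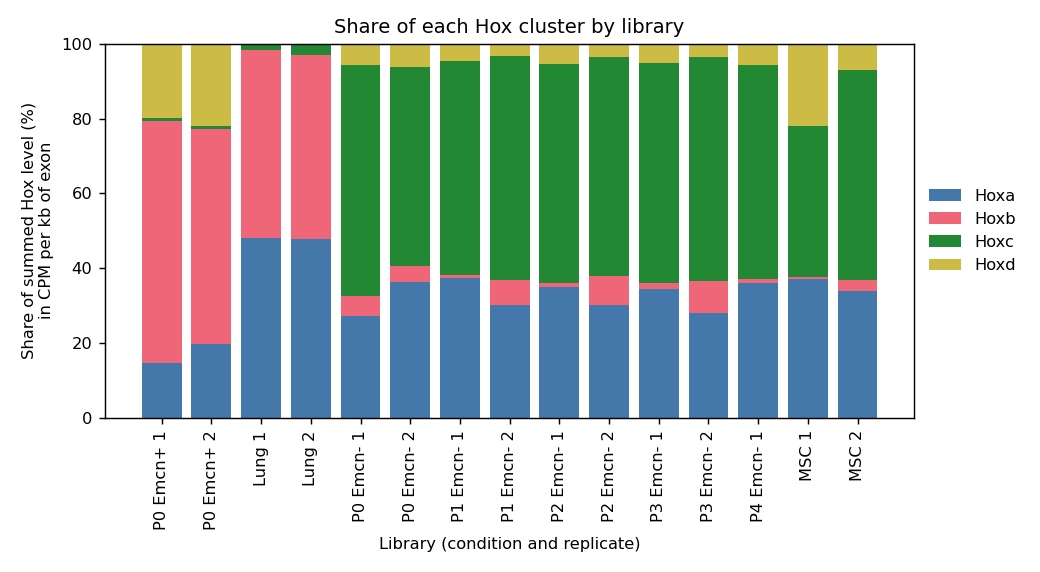
Share of the summed Hox level (CPM per kb of exon, in percent) from each cluster, with 1 bar per library. Hoxb is the largest part in P0 Emcn+, Hoxa and Hoxb fill nearly the whole bar in lung, and Hoxc and Hoxa fill most of the others.

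The level peaked at different paralog numbers. Summed over the clusters, paralog group 8 was highest in P0 Emcn+ replicate 1, at 47.3 CPM per kb, and group 7 in replicate 2, at 30.7 CPM per kb. In lung, group 5 was highest, at 27.8 and 26.1 CPM per kb, and groups 10 to 12 did not exceed 0.0631 CPM per kb. Group 10 was highest in all 9 Emcn- marrow libraries, at 21.2 to 43.4 CPM per kb, and in MSC, at 60.1 and 48.1 CPM per kb. Posterior genes (paralogs 9 to 13) made up 51.03% ± 3.59 of the level in P0 Emcn-, 14.4% ± 2.08 in P0 Emcn+ and 1.01% ± 0.664 in lung (mean ± SD, n = 2).

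**Figure D3:**
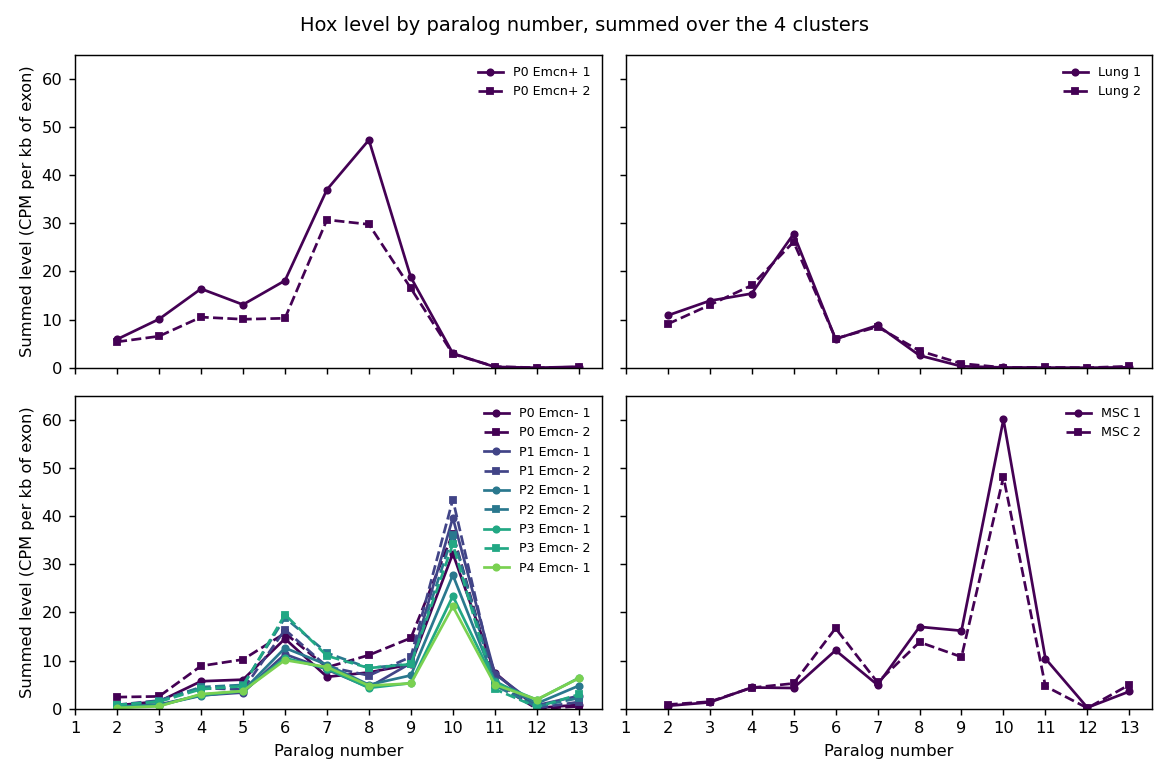
Hox level summed over the 4 clusters (CPM per kb of exon) by paralog number, from 2 to 13, for each library. The peak lies at paralogs 7 and 8 in P0 Emcn+, at 5 in lung and at 10 in the Emcn- marrow libraries and MSC.

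Over the 8 conditions together, 32 of the 35 tested genes differed (edgeR's quasi-likelihood F test, Benjamini-Hochberg adjusted p under 0.05), where 63.5% of the 19401 tested genes did. Among the exceptions were Hoxa6 (adjusted p = 0.257) and Hoxd3 (0.0585). Between conditions, a gene was called when edgeR's quasi-likelihood test gave an adjusted p under 0.05 and its log2 fold change lay beyond 1.5 in either direction.

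The P0 populations differed most in the Hoxb and Hoxc clusters. All 8 tested Hoxb genes and 4 Hoxd genes were higher in P0 Emcn+, and 8 Hoxc and 3 Hoxa genes were lower. These are 23 of 35 tested Hox genes, where 19.2% of all tested genes were called (7.79% higher and 11.4% lower). The median log2 fold change was 4.31 for Hoxb, 2.74 for Hoxd, 0.22 for Hoxa and -5.73 for Hoxc genes, against -0.06 over all genes tested. Each of the 23 genes had its direction in both batches.

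Hoxb8, a gene of the thoracic and lumbar region, had 69.1 and 32.1 CPM in P0 Emcn+, 1.79 and 0.504 in P0 Emcn- and 6.46 and 8.81 in lung. It had 0.0595 and 0.682 CPM in P1, 0.0292 and 0.895 in P2, 0.0564 and 0.703 in P3, 0.0275 in P4 and 0.140 and 0.731 in MSC. Its log2 fold change between the P0 populations was 5.34 (SE 1.27, adjusted p = 0.00841). Hoxb9, the most posterior Hoxb gene that was detected, had 23.9 and 24.5 CPM in P0 Emcn+ and 0.831 and 0.101 in P0 Emcn- (log2 fold change 5.44, SE 1.396, adjusted p = 0.0126). Both P0 Emcn+ libraries stood above the other 13 for these 2 genes and for Hoxb6, Hoxb7, Hoxd3, Hoxd4 and Hoxd8, as they did for 17.2% of all tested genes.

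Hoxb7 and Hoxb6 are used in the trunk. Hoxb7 had 44.9 and 33.7 CPM in P0 Emcn+, 1.91 and 2.02 in P0 Emcn-, 9.03 and 8.44 in lung, 0.385 in P4 and 0.196 and 0.791 in MSC (log2 fold change 4.36, SE 1.38, adjusted p = 0.0329 between the P0 populations). Hoxb6 had 31.8 and 17.2 CPM in P0 Emcn+, 1.23 and 1.41 in P0 Emcn-, 9.39 and 8.25 in lung, 0.0825 in P4 and 0.112 and 0.335 in MSC (log2 fold change 4.26, SE 1.49, adjusted p = 0.0490). Hoxb5 had 18.5 and 10.7 CPM against 0.705 and 0.504 (log2 fold change 4.56, SE 1.39, adjusted p = 0.0282). Hoxb4, known for the self-renewal of hematopoietic stem cells, had 26.97 and 16.7 CPM in P0 Emcn+, 2.14 and 3.73 in P0 Emcn-, 25.7 and 28.1 in lung, 0.660 in P4 and 0.814 and 2.25 in MSC. Hoxb3 had 34.4 and 20.7 CPM in P0 Emcn+, 2.42 and 3.73 in P0 Emcn-, 44.9 and 38.96 in lung, 0.550 in P4 and 0.674 and 2.53 in MSC. Hoxb2, used in the hindbrain, had 16.2 and 13.7 CPM against 1.01 and 1.51 (log2 fold change 3.65, SE 1.22, adjusted p = 0.0411). For all 8 Hoxb genes both P0 Emcn+ libraries lay above both of P0 Emcn-, as they did for 27.8% of all tested genes.

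The Hoxb calls lay near the threshold, with adjusted p of 0.00841 to 0.0490, and with a replicate block for the batches they were 0.000178 to 0.00343. Without P0 Emcn+ replicate 1 or 2, or without P0 Emcn- replicate 1 or 2, the comparison called 16, 17, 15 and 14 Hox genes, and Hoxb2, Hoxb3, Hoxb6 and Hoxb7 were not called in any of these fits. Hoxb4, Hoxb5 and Hoxd4 were called only in the fit without P0 Emcn+ replicate 2, and Hoxd10 only in the fit without P0 Emcn+ replicate 1. Leaving out replicate 2 of P0 Emcn- lost Hoxa9 and Hoxb9, and leaving out replicate 2 of P0 Emcn+ lost Hoxa9 as well. The other 13 genes were called in all 4 fits. P0 Emcn- replicate 1 held more RNA of 9 of the 10 endothelial markers than replicate 2, and less of Tek (20.3 and 49.4 CPM in replicates 1 and 2). In percent of the P0 Emcn+ mean, the median of the 10 endothelial markers was 2.44% in replicate 1 and 0.285% in replicate 2, and the median of the 8 Hoxb genes was 4.95% and 5.45%. The single genes differed, with Hoxb8 at 3.53% and 0.996% and Hoxb9 at 3.43% and 0.417%, and with Hoxb2, Hoxb3 and Hoxb4 higher in replicate 2. Hoxb8 and Hoxb9 had 5 counts and 1 count in replicate 2.

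Of the Hoxd genes, which pattern trunk and limbs, Hoxd8 was the only one above 20 CPM in P0 Emcn+. It had 57.5 and 48.1 CPM there, 10.6 and 14.02 in P0 Emcn-, 0.221 and 0.415 in lung, 7.11 and 5.63 in P1, 7.97 and 6.43 in P2, 6.89 and 6.29 in P3, 7.84 in P4 and 27.6 and 10.7 in MSC. Its log2 fold change between the P0 populations was 2.14 (SE 0.41, adjusted p = 0.00257). Hoxd9 had 16.95 and 12.3 CPM against 1.64 and 3.23 (log2 fold change 2.67, SE 0.54, adjusted p = 0.00366). Hoxd4 (log2 fold change 2.75, SE 0.72, adjusted p = 0.0137) and Hoxd10 (log2 fold change 3.39, SE 0.93, adjusted p = 0.0199) were higher as well. Hoxd3 had 1.71 and 1.39 CPM against 0.352 and 0 and was not called (log2 fold change 2.74, SE 1.41, adjusted p = 0.174). Hoxd3 and Hoxd4 share 62.3% and 52.3% of their exon bases with each other and a further gene of the same strand, so that reads could have been split between them.

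The Hoxc genes, which are used in the trunk and the hindlimb, did not exceed 0.889 CPM in P0 Emcn+. Hoxc10, a gene of the hindlimb region, had 0.602 and 0.889 CPM in P0 Emcn+, 48.04 and 44.4 in P0 Emcn-, 48.7 and 54.9 in MSC and 1 count in both lung libraries together. Its log2 fold change between the P0 populations was -5.93 (SE 0.30, adjusted p = 1.05e-06). Hoxc6, a gene of the thorax, had 0.475 and 0.541 CPM in P0 Emcn+, 29.004 and 27.7 in P0 Emcn-, 0.387 and 1.80 in lung, 21.4 in P4 and 25.4 and 33.9 in MSC (log2 fold change -5.76, SE 0.60, adjusted p = 6.2e-05). Hoxc8 had 0.285 and 0.116 CPM against 8.51 and 16.5, Hoxc11 0.0634 and 0.271 against 10.5 and 8.47, Hoxc4 0.285 and 0.155 against 9.01 and 15.9 and Hoxc5 0.190 and 0.0773 against 6.22 and 7.97. With Hoxc9, their log2 fold changes lay between -5.84 and -5.12. Hoxc13 had 3 counts in P0 Emcn+ and 88 in P0 Emcn-, a ratio of CPM of 33.9 (95% counting interval 11.2 to 168). Hoxc12, with 0 and 7 counts, was not called.

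The Hoxa cluster split by position. Hoxa9, Hoxa10 and Hoxa11, genes of the lumbar region and the limbs, were lower in P0 Emcn+, and none of Hoxa2 to Hoxa7 was called. Hoxa13, the most posterior Hoxa gene, was not called either. It had 3 and 1 counts in P0 Emcn+ and 2 and 2 in P0 Emcn-, too few to place it in this split. Hoxa10 had 5.61 and 4.37 CPM in P0 Emcn+ and 22.8 and 42.8 in P0 Emcn- (log2 fold change -2.67, SE 0.31, adjusted p = 0.000119). Hoxa11 had 0.317 and 0.232 CPM against 5.19 and 2.62 (log2 fold change -3.80, SE 0.65, adjusted p = 0.00131). Hoxa9 had 7.16 and 5.80 CPM against 13.5 and 25.2 (log2 fold change -1.53, SE 0.31, adjusted p = 0.00356), and with the replicate block its fold change, -1.47, fell short of the limit (adjusted p = 0.00677). Hoxa7 was above 8 CPM in every library, with 22.7 and 25.5 CPM in P0 Emcn+, 15.5 and 20.98 in P0 Emcn-, 8.48 and 8.67 in lung, 19.1 to 25.6 in the passaged cells and 13.9 and 14.3 in MSC. Antisense genes overlap 35.0% of the exon bases of Hoxa11 and 52.9% of those of Hoxb3, and whether counting used the strand is not given in the sources used here.

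**Figure D4:**
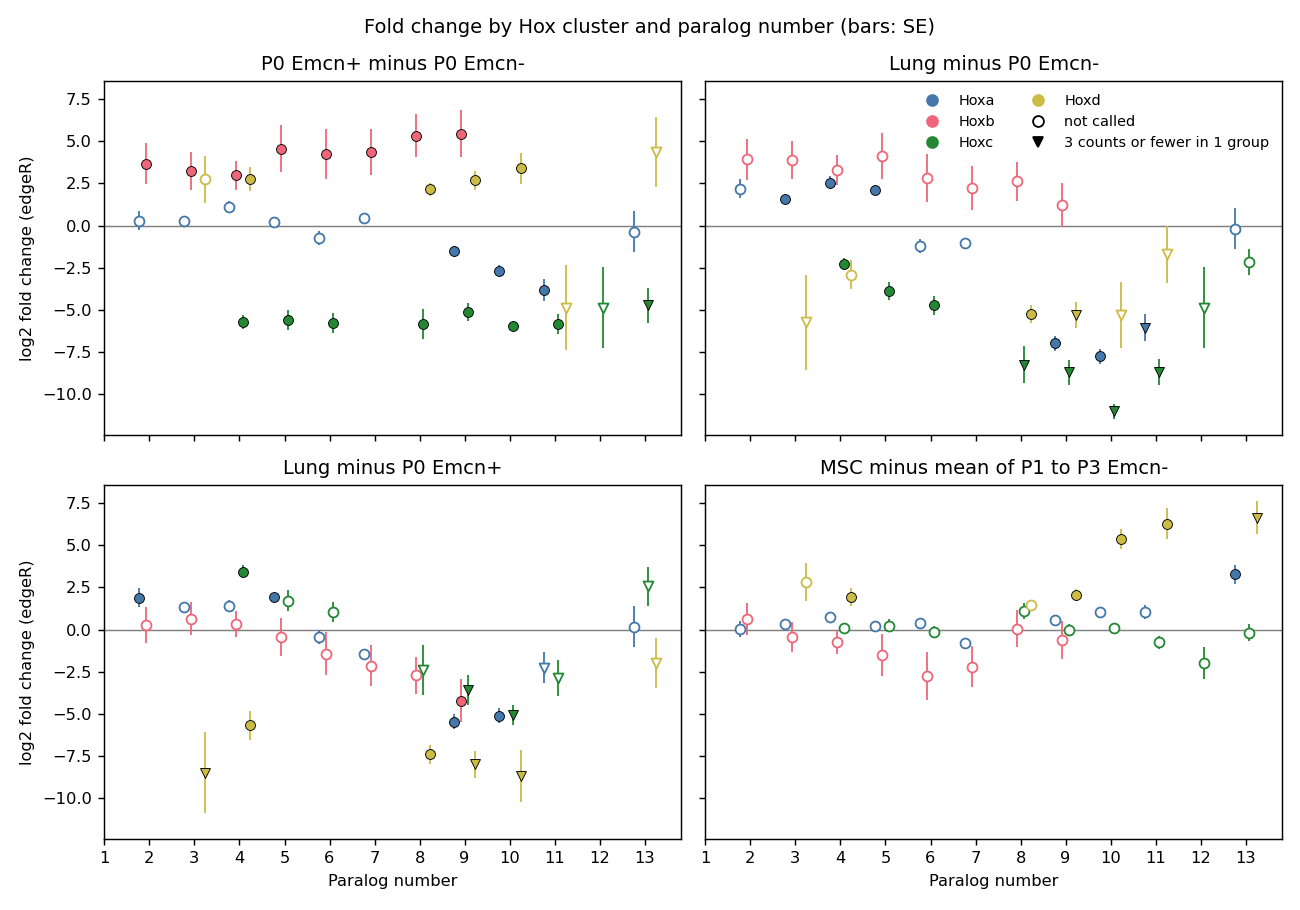
Log2 fold change of tested Hox genes (edgeR, bars are SE) by paralog number, coloured by cluster, in 4 comparisons. Filled symbols were called, triangles mark genes with 3 counts or fewer in 1 group, whose fitted value depends on the prior count, and genes at that level in both groups are left out. All Hoxb genes lie above 0 and all Hoxc genes below 0 between the P0 populations.

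Lung cells had more of some Hoxa genes and less of most Hoxc genes than P0 Emcn- cells. Hoxa3, Hoxa4 and Hoxa5 were higher in lung, and 12 genes were lower, namely 7 Hoxc genes, Hoxa9 to Hoxa11, Hoxd8 and Hoxd9. These are 15 of 35 Hox genes, where 3.83% of all tested genes were called (2.13% higher and 1.7% lower). The median log2 fold change was -1.71 over the Hox genes and 0 over all genes tested. All 15 had their direction in both batches.

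Hoxa5, needed for the development of the lung, had 44.5 and 41.8 CPM in lung, 7.10 and 14.02 in P0 Emcn-, 11.98 and 11.6 in P0 Emcn+, 4.997 to 6.33 in the passaged cells and 6.15 and 7.34 in MSC. Lung stood above all other libraries for Hoxa5, with a log2 fold change of 2.12 against P0 Emcn- (SE 0.27, adjusted p = 0.00259). Hoxa4 had 7.18 and 7.98 CPM against 1.38 and 1.31 (log2 fold change 2.55, SE 0.36, adjusted p = 0.00437), and Hoxa3 had 20.02 and 23.1 CPM against 5.24 and 10.2 (log2 fold change 1.57, SE 0.32, adjusted p = 0.0194). Hoxa3, an anterior gene of the neck region, was not called without either lung library or without P0 Emcn- replicate 1.

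On the posterior side, Hoxa10 had 0.138 and 0.138 CPM in lung (log2 fold change -7.76, SE 0.44, adjusted p = 4.74e-05) and Hoxa9 had 0.110 and 0.184 CPM (log2 fold change -6.99, SE 0.45, adjusted p = 8.43e-05). The 1 count of Hoxc10 in lung stood against 2348 counts in P0 Emcn-, a ratio of CPM of 2739 (95% counting interval 491 to 108239). Hoxc11, with 1 count against 501, had a ratio of 584 (95% counting interval 104 to 23131). These posterior genes were thus at or near the limit of detection in lung. Hoxc9, with 2 counts against 759, had a ratio of 443 (95% counting interval 122 to 3662), and Hoxc8, with 2 against 502, a ratio of 293 (95% counting interval 80.6 to 2425). Hoxc4, the most anterior Hoxc gene, had 2.21 and 2.63 CPM in lung against 9.01 and 15.9 (log2 fold change -2.29, SE 0.34, adjusted p = 0.00525).

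For Hoxb2 to Hoxb8, the lung libraries lay above those of P0 Emcn- without overlap, as for 17% of all tested genes, and none was called. The log2 fold changes were 3.88 for Hoxb3 (SE 1.13, adjusted p = 0.0844) and 3.31 for Hoxb4 (SE 0.88, adjusted p = 0.0603). With the replicate block, Hoxb2 to Hoxb8 and Hoxa2 were called in addition, so that 23 of 35 Hox genes passed (Hoxb3 with an adjusted p of 0.00938), against 4.36% of all genes in that fit.

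Against P0 Emcn+, a comparison that uses the same lung libraries, 3 Hox genes were higher in lung and 10 were lower, of 35 tested, where 21.1% of all tested genes were called (12.6% higher and 8.48% lower). Hoxc4 (log2 fold change 3.44, SE 0.40), Hoxa5 (1.90, SE 0.26) and Hoxa2 (1.90, SE 0.54) were higher. The 5 Hoxd genes detected in P0 Emcn+ were all lower. Hoxd3 and Hoxd10 had no count in lung and were at least 30.2-fold and 34.6-fold lower (against 3 counts over the group). Hoxd9, with 3 counts in lung, had a ratio of CPM of 287 (95% counting interval 97.9 to 1394). Hoxd8 (log2 fold change -7.39, SE 0.55, adjusted p = 8.71e-06) and Hoxd4 (log2 fold change -5.66, SE 0.86, adjusted p = 0.000607) were lower too. The log2 fold changes of Hoxb2 to Hoxb8, none of them called, ran from -2.70 for Hoxb8 to 0.64 for Hoxb3. Hoxb9 had 0.635 and 1.98 CPM in lung (log2 fold change -4.21, SE 1.29, adjusted p = 0.0265), and its call was lost without any 1 of the 4 libraries. Hoxa2 was lost without either P0 Emcn+ library or without lung replicate 1, Hoxd3 without P0 Emcn+ replicate 1 or either lung library, and Hoxc9 without lung replicate 1.

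Few Hox genes separated P0 Emcn- from the first passage. In P1, 1 of 35 Hox genes was lower and none was higher, where 8.84% of all tested genes were called (5.77% higher and 3.07% lower). It was Hoxa4, which fell from 1.38 and 1.31 CPM to 0.208 and 0.323 CPM (log2 fold change -2.19, SE 0.40, adjusted p = 0.00589), and it was not called without P1 replicate 1. No batch holds libraries of both conditions, which cannot be told apart from the batches. Hoxa10 had 22.8 and 42.8 CPM in P0 and 44.02 and 40.999 in P1, and Hoxa9 13.5 and 25.2 in P0 and 24.2 and 20.2 in P1.

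From P1 to the later passages, edgeR's quasi-likelihood test called none of the 35 Hox genes, and neither did DESeq2. At an unadjusted p under 0.05 there were 1 gene for P2, 2 for P3 and 6 for P4, where 4.41%, 13.6% and 11.3% of all tested genes were. Of all tested genes, 0% were called for P2, 0.222% for P3 (0.0773% higher, 0.144% lower, and 0.546% in all with the replicate block) and 0.0773% for P4 (0.0464% higher, 0.0309% lower, and 0.134% in all with the replicate block). Hoxc10 had 49.6 and 58.6 CPM in P1, 37.5 and 50.2 in P2, 32.1 and 47.7 in P3 and 27.6 in P4 (P4 against P1, log2 fold change -0.90, SE 0.29, adjusted p = 0.277 in edgeR). Hoxa10 had 26.3 and 31.8 CPM in P2, 21.1 and 29.5 in P3 and 22.02 in P4 (P3 against P1, log2 fold change -0.72, SE 0.29, adjusted p = 0.308). Hoxa9 had 15.3 and 18.1 CPM in P2, 11.9 and 17.8 in P3 and 11.3 in P4. Hoxc13, the most posterior Hoxc gene, had 1.96 and 1.01 CPM in P0 Emcn-, 6.31 and 3.34 in P1, 11.5 and 5.17 in P2, 15.5 and 7.07 in P3 and 15.3 in P4. Within each batch Hoxc13 stood higher in P3 than in P2 and higher in P2 than in P1, and the test of P3 against P1 did not call it (log2 fold change 1.26, SE 0.64, adjusted p = 0.429).

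The replicates of the passaged cells stood apart in the Hoxb cluster. All 8 tested Hoxb genes were higher in every replicate 2 library of P1 to P3 (batch c) than in every replicate 1 library (batch b), where 14.4% of all tested genes were so arranged and 7.97% the other way round. Hoxb7 had 0.149, 0.408 and 0.536 CPM in replicate 1 of P1, P2 and P3, and 3.26, 4.34 and 4.48 in replicate 2. Hoxb6 had 0.119, 0.233 and 0.113 CPM in replicate 1 and 2.44, 2.78 and 2.998 in replicate 2. Hoxb3 and Hoxb4 were arranged alike. Hoxb3 had 0.268, 0.788 and 0.705 CPM in replicate 1 and 3.59, 3.78 and 3.33 in replicate 2, and Hoxb4 had 0.982, 0.992 and 0.931 CPM in replicate 1 and 4.09, 4.11 and 3.37 in replicate 2. In percent of the P0 Emcn+ mean, the median of the 8 genes was 0.489% to 0.956% in replicate 1, 8.73% to 11.3% in replicate 2 and 0.866% in P4, which belongs to batch b.

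Hoxc4, Hoxc5, Hoxc6, Hoxc8 and Hoxc9 were likewise higher in replicate 2 without overlap, and Hoxc12, Hoxd4 and Hoxd8 were lower. Hoxc8 had 5.24, 5.86 and 5.11 CPM in replicate 1 and 13.02, 16.4 and 16.7 in replicate 2, and Hoxc6 had 24.03, 27.1 and 21.98 CPM in replicate 1 and 32.7, 37.5 and 40.6 in replicate 2. None of the 11 Hoxa genes was arranged in either way. The 10 endothelial markers summed to 92.9, 97.8 and 103 CPM in replicate 1 and to 78.6, 67.9 and 75.03 CPM in replicate 2. Most of these sums came from Kdr, Flt1 and Tek, whereas Cdh5, with 1.13, 0.408 and 0.0564 CPM in replicate 1 and 2.33, 0.497 and 0.185 in replicate 2, and Erg, with 0.178, 0.350 and 0.0564 CPM against 0.682, 0.530 and 0.592 CPM, were higher in replicate 2 at each passage. Of the 10 markers, Kdr, Flt1, Tek and Emcn were lower in replicate 2 at each passage, and Pecam1, Tie1, Egfl7 and Esam varied in direction between the passages. The 4 mesothelial markers summed to 0.892, 1.08 and 1.33 CPM in replicate 1 and to 2.30, 3.58 and 5.92 CPM in replicate 2. Most of these sums came from Msln alone, with 0.565, 0.992 and 1.30 CPM in replicate 1 and 2.12, 3.35 and 5.77 in replicate 2. Upk3b, at few counts, was higher in replicate 2 too. Wt1 was lower in replicate 2 at P1 and P2, and Lrrn4 had no count in these libraries. Rarb, the retinoic acid receptor beta, had 6.42, 4.52 and 2.57 CPM in replicate 1 and 12.4, 9.64 and 7.25 in replicate 2. The retinoid receptor genes Rara, Rarg and Rxra were also higher in replicate 2 at each passage, Rara only slightly. The growth factor gene Gdf11 was lower, with 21.3, 26.7 and 36.3 CPM in replicate 1 and 18.4, 18.1 and 23.5 in replicate 2. Their part in the Hox levels was not tested, and batch and culture cannot be told apart here.

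**Figure D5:**
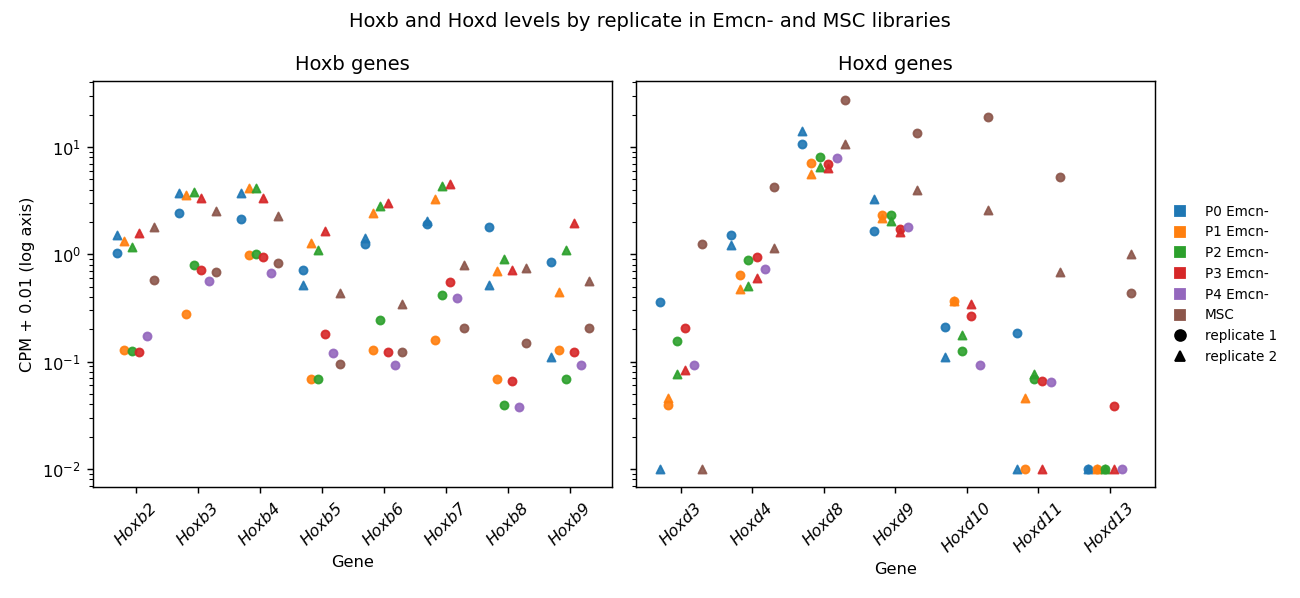
CPM plus 0.01 (log axis) of the tested Hoxb and Hoxd genes in the Emcn- marrow and MSC libraries, with circles for replicate 1 and triangles for replicate 2. For each of the 8 Hoxb genes, the triangles of P1 to P3 lie above the circles.

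MSC had more Hoxa13 and more of 5 Hoxd genes than the passaged cells. Against the mean of P1, P2 and P3 Emcn-, 6 Hox genes were higher and none was lower, of 35 tested, where 14.2% of all tested genes were called (8.42% higher and 5.81% lower), so that the count of Hox genes called is close to that over all genes. They were Hoxa13, Hoxd4, Hoxd9, Hoxd10, Hoxd11 and Hoxd13. Hoxa13 and Hoxd13 pattern the hand and foot, and Hoxd11 acts with Hoxa11 in the forearm. Hoxa13 had 2.47 and 2.68 CPM in MSC and at most 0.330 CPM in any other library (log2 fold change 3.27, SE 0.55, adjusted p = 0.00165). Hoxd10 had 19.1 and 2.59 CPM in MSC and 0.0825 to 0.359 in the passaged cells (log2 fold change 5.37, SE 0.58, adjusted p = 0.000230). Hoxd11 had 5.28 and 0.670 CPM in MSC and at most 0.0663 in the passaged cells (log2 fold change 6.29, SE 0.92, adjusted p = 0.00109). All 3 genes were thus apart from the passaged cells in both MSC libraries. Hoxd13 had 15 and 33 counts in MSC and 1 count in the passaged libraries together. Hoxd9 had 13.5 and 3.99 CPM in MSC and 1.59 to 2.33 in the passaged cells (log2 fold change 2.05, SE 0.38, adjusted p = 0.00278), and Hoxd4 had 4.18 and 1.13 CPM in MSC and 0.466 to 0.931 in the passaged cells (log2 fold change 1.92, SE 0.52, adjusted p = 0.0182). With the replicate block, 10 Hox genes were called, where 13.6% of all genes were, with Hoxd8 higher and Hoxb5, Hoxb6 and Hoxb7 lower in addition.

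Of these 6 genes, Hoxd4, Hoxd9, Hoxd10 and Hoxd11 stood higher in MSC replicate 1 than in replicate 2, Hoxd13 stood lower, and Hoxa13 was alike in both. Among genes that were not called, replicate 1 had 27.6 CPM of Hoxd8 and 16.9 of Hoxa11, and replicate 2 had 10.7 and 4.87 CPM. Hoxd3 had 44 counts in replicate 1 and 0 in replicate 2. Without MSC replicate 1, 4 genes were called and Hoxd4 and Hoxd9 were lost, and without replicate 2 there were 9. The endothelial markers summed to 43.7 and 369 CPM in replicates 1 and 2, and the 6 osteolineage markers to 2487 and 3604 CPM. Most of the osteolineage sums came from Spp1, with 2276 and 3478 CPM. Sp7 was likewise lower in replicate 1. Alpl (106 and 48.9 CPM), Runx2 (77.9 and 56.8), Ibsp (22.7 and 14.03) and Bglap (1.52 and 1.07) were higher in replicate 1. The mesenchymal and fibroblast markers summed to 19668 and 11200 CPM, although Pdgfra, Pdgfrb and Thy1 were lower in replicate 1. Against P1 to P3, 6 of the 10 endothelial markers were called higher in MSC and 2 lower, and 4 of the 6 osteolineage markers higher. Of the 8 mesenchymal and fibroblast markers, 3 were called higher and 1 lower, and of the 8 macrophage markers 4 lower. Of all tested genes, 8.42% were called higher and 5.81% lower. The part of these markers in the Hox results was not tested. Hoxa10 had 78.7 and 58.7 CPM in MSC, above every other library (log2 fold change 1.04, SE 0.22, adjusted p = 0.00558 against the passaged cells, under the fold limit), and Hoxa9 had 30.8 and 25.4 CPM.

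Against P0 Emcn-, MSC had 7 of 35 Hox genes higher and none lower, where 18.7% of all tested genes were called (11.3% higher and 7.45% lower), so that here too the count of Hox genes called is close to that over all genes. They were Hoxa11, Hoxa13, Hoxc13, Hoxd9, Hoxd10, Hoxd11 and Hoxd13. Hoxd13, without a count in P0 Emcn-, was at least 11.6-fold higher (against 3 counts over the group). Hoxd10 (log2 fold change 6.06, SE 0.97, adjusted p = 0.00172) and Hoxa13 (log2 fold change 4.84, SE 0.97, adjusted p = 0.00409) were higher by the most among the others. Without P0 Emcn- replicate 1 or MSC replicate 1, 3 Hox genes were called, and without P0 Emcn- replicate 2 or MSC replicate 2 there were 5. Hoxd10 and Hoxa13 were called in all 4 of these fits. With the replicate block, 11 Hox genes were called, where 18.4% of all genes were. Hoxa11, Hoxd11 and Hoxd13 were lost (adjusted p of 0.0520, 0.0568 and 0.0652), and Hoxb2 to Hoxb8 were called lower in MSC. These Hoxb calls rest on the block, which moved MSC to the midpoint of batches b and c by the difference seen in P1 to P3. Hoxb genes were lower in batch b there, so the block lowered the MSC values. P0 Emcn- was not so moved. Without the block no Hoxb gene was called (median log2 fold change -1.03). Batch and condition cannot be told apart here either, nor can culture medium and condition.

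The TALE genes, whose proteins bind DNA with Hox proteins, differed between the P0 populations as well. Of 9 tested, 5 were lower in P0 Emcn+, among them Meis1, Meis2 and Pknox2, and none was higher, where 11.4% of all tested genes were lower and 7.79% higher, with a median log2 fold change of -2.02. Meis1 had 0.919 and 1.08 CPM in P0 Emcn+, 25.8 and 33.8 in P0 Emcn- and 85.8 and 79.7 in lung (log2 fold change -4.86, SE 0.26, adjusted p = 1.31e-06 between the P0 populations). Between lung and P0 Emcn-, Meis1 alone of the 9 was called, higher in lung, where 2.13% of all tested genes were (log2 fold change 1.55, SE 0.21, adjusted p = 0.00397). In MSC, Meis2, again 1 of 9, was lower than in P1 to P3, where 5.81% of all tested genes were (log2 fold change -1.77, SE 0.21, adjusted p = 0.000256).

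The 17 Polycomb and trithorax genes, which keep Hox genes silent or active, were called in none of the 9 comparisons by edgeR or DESeq2, where edgeR called 0% to 21.1% of all tested genes. At an unadjusted p under 0.05 there were 7 of the 17 between the P0 populations (43% of all tested genes), 3 between lung and P0 Emcn- (18%) and 3 between lung and P0 Emcn+ (45.7%). There were 6 for MSC and 3 for P1 against P0 Emcn- (46.4% and 34.4% of all tested genes), 0, 2 and 2 for P2, P3 and P4 against P1 (4.41%, 13.6% and 11.3%) and 4 for MSC against P1 to P3 (42.2%). Of 8 genes of Cdx factors, retinoid receptors and Gdf11, a growth factor that sets posterior position, 5 were tested, and Rarb (log2 fold change -2.62, SE 0.71, adjusted p = 0.0170) and Gdf11 (log2 fold change -2.35, SE 0.41, adjusted p = 0.00138) were lower in P0 Emcn+, where 11.4% of all tested genes were. Of 12 tested genes that flank the clusters, 1 was called, where 19.2% of all tested genes were. It was Snx11, beside the Hoxb cluster, with 48.01 and 36.3 CPM in P0 Emcn+ and 12.03 and 16.1 in P0 Emcn- (log2 fold change 1.62, SE 0.21, adjusted p = 0.000215).

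Of 8 tested noncoding genes of the clusters, Hotairm1 and Hoxd3os1 were higher in P0 Emcn+ and Hotair and Hoxa11os were lower, where 7.79% of all tested genes were higher and 11.4% lower. Hotair, of the posterior Hoxc cluster, had no count in P0 Emcn+ or lung, 1.23 and 0.303 CPM in P0 Emcn- and 0.444 to 2.05 in the passaged cells. Hoxaas2, antisense to Hoxa3, had 10.2 and 5.21 CPM in lung and 0.127 to 0.674 in all other libraries (lung against P0 Emcn-, log2 fold change 4.73, SE 0.54, adjusted p = 0.00177). Hoxb5os had 2.13 and 1.71 CPM in lung, at most 0.122 in the Emcn- marrow and MSC libraries, and no count in P0 Emcn+, where Hoxb5 had 18.5 and 10.7 CPM.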

How the data were processed

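RNA-seq of 15 libraries was analysed. The authors' deposited table holds whole-number counts per gene. The submitters' notes name STAR, Salmon and the build GRCm38, and how estimates became whole numbers, and whether strand was used, is not given in the sources used here. Of the table's symbols, 8 are blank. Library totals were 9914620 to 39718807 counts, so that 3 counts equal 0.0755 to 0.303 CPM. Groups and batches came from the labels. Counts were tested with edgeR 4.0.16 in R 4.3.3 (TMM factors, filterByExpr with a minimum count of 10 and a minimum total of 15, quasi-likelihood F test, Benjamini-Hochberg adjustment over 19401 genes) in 1 fit of all 8 conditions, with 7 residual degrees of freedom. A call needed an adjusted p under 0.05 and a log2 fold change beyond 1.5 in either direction. The study's limits have these sizes but were set on DESeq2 fold changes after shrinkage, and here they were set on edgeR fold changes without it. By the study's account, replicates within a condition are independent. Libraries of different conditions may share a culture, since both P0 populations were sorted from P0 marrow and P1 to P4 are successive passages, and p-values from the fit without the block treat them as independent.

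Alternatives were DESeq2 1.42.0, other scaling, filters, leaving out each library and a replicate block, made of 2 batch terms (batch d against a, and b against c). Since both MSC libraries are of batch c, the block pairs no MSC library. It moves the MSC values to the midpoint of batches b and c by a difference taken from P1 to P3. The labels give the shared batches, and deviations from the group means correlated at 0.150 to 0.316 among the P0 and lung groups, at 0.509 to 0.676 among P1 to P3, and at 0.0198 to 0.203 between groups without a shared batch. Replicates differed beyond sampling noise (chi-square per degree of freedom 38.6 to 129). Scripts were tested on simulated data. The named genes were the 12 Hox genes with the highest condition mean, up to 6 called genes per direction and comparison, and, from other lists, up to 4 per direction. Members and lists were chosen with earlier results of these data known. Values of some genes are not reported here.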

Additional observations from a re-analysis of the deposited data

How the results depend on the processing

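Counts of called Hox genes were set against alternatives. Between P0 Emcn+ and P0 Emcn-, 23 genes were called, 14 to 17 when 1 library was left out and 22 to 24 under the others. Between lung and P0 Emcn-, 15 were called, 14 to 16 with 1 library left out, 23 with the replicate block, 22 with DESeq2, 21 with no filter on low counts and 11 when other groups were left out of the fit. Between lung and P0 Emcn+, 13 were called, 11 to 13 with 1 library left out and 12 to 16 under the others. Between MSC and P0 Emcn-, 7 were called, 3 to 5 with 1 library left out, 11 with the replicate block, 6 with DESeq2 and 4 when other groups were left out of the fit. Between P1 and P0 Emcn-, 1 was called, 0 to 2 with 1 library left out, 2 with DESeq2, 2 with no fold change limit and 0 when other groups were left out. Between MSC and P1 to P3, 6 were called, 4 to 9 with 1 library left out, 10 with the replicate block, 5 with DESeq2 and 4 with at least 50 counts in 2 libraries required. For P2, P3 and P4 against P1 every alternative gave 0. Among the 8 conditions 32 differed, and 30 to 33 under the alternatives. Of 1563 alternative values for named genes, 82 lost a call, 30 gained one and 0 reversed. The cause was not tested. Where an arm was left with 1 library, that library was assumed to vary like the others.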
